A study of Homo sapiens with 6 samples.

Results

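The genes described here are CD44, VCAN, HMMR, HAS2, HAS3, HYAL1 and HYAL2, which encode proteins that hold, bind, make or break down hyaluronan. They were chosen by name, as 7 of the 35474 genes in a count table from A549 cells, and all 7 passed the filter on low counts and were tested. A549 is a human lung adenocarcinoma line of epithelial origin, and the study asked how the chromatin remodeling factor BAP18, encoded by C17orf49, acts in non-small cell lung cancer. Poly(A) RNA was sequenced 48 h after transfection from 3 libraries of cells that received siRNA against BAP18 (siBAP18) and from 3 libraries of cells that received a non-specific control siRNA (siCtrl). Both groups were transfected cells of the same line with no other agent named, and the labels call the 3 libraries of a group biological replicates. The study's methods list several siRNAs against BAP18, and which of them was used for these libraries is not given in the sources used here.

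Hyaluronan is a long, unbranched sugar polymer of the pericellular and extracellular matrix. It is extruded by the membrane synthases HAS1, HAS2 and HAS3 from UDP-sugars, bound at the cell surface by CD44 and in the matrix by versican (VCAN), and cut by hyaluronidases such as HYAL1 in lysosomes and HYAL2 at the membrane. HMMR, also called RHAMM, binds hyaluronan and is also a microtubule-associated protein of the mitotic spindle, whose transcript is made mainly in dividing cells. CD44 is a widely used surface marker of epithelial tumors and is counted among the target genes of Wnt/β-catenin signaling, the pathway whose link to BAP18 the study examined.

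The promoters of HMMR and VCAN are shown first, since these genes had the 2 largest falls among the surface and matrix binders described below, and since the promoter windows differed in the short motifs they held. Each window runs from 250 bases before to 50 bases after the RefSeq start (GRCh38.p14, plus strand), at chr5:163460382-163460681 for HMMR and chr5:83471494-83471793 for VCAN. Capitals mark the motifs CCAAT, read on either strand and so also as ATTGG, and TTTGAA.
HMMR promoter: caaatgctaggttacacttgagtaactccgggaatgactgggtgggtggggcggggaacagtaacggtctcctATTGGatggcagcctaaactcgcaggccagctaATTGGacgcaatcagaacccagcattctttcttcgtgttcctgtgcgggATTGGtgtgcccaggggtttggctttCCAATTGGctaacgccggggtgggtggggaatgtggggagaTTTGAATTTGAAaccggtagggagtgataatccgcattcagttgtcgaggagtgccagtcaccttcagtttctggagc
VCAN promoter: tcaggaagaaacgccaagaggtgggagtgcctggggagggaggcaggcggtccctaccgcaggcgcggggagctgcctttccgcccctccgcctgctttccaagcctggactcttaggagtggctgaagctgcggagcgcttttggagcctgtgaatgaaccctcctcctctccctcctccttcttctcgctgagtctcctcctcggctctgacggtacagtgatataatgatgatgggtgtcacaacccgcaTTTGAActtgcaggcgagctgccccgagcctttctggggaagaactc

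The HMMR window held 5 matches to CCAAT, the letters of the box that the factor NF-Y binds, and 2 adjoining matches to TTTGAA, the letters of the cell cycle genes homology region, at positions -28 and -22 from the start. The 2 CCAAT matches nearest the start lie on opposite strands and share bases. At least 2 matches to each motif were present in 0.245% of the 35116 promoters of the same length, and at least 1 match to each in 5.9%. The limit of 2 equals the number of TTTGAA matches in HMMR, so 0.245% does not measure how unusual its window is. At least 1 match to TTTGAA was found in 15.2% of promoters and at least 1 to CCAAT in 34.6%, both strands searched. The VCAN window held 1 match to TTTGAA, at position 3, and none to CCAAT. The core letters bound by TCF/LEF factors, searched as the word CTTTGAA (which contains the homology region letters), the word CTTTGAT or else the word CTTTGTT, occurred in 11.5% of all promoters and in 0 of the 6 windows searched, those of CD44, VCAN, HMMR, HAS3, HYAL1 and HYAL2. The AP-1 letters TGANTCA occurred in 7.71% of promoters and in 0 of these 6. These counts describe the letters of short windows, and say nothing of factors bound there or elsewhere in the genes.

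The targeted gene was checked first. Counts of C17orf49 were 743, 751 and 705 for siCtrl and 120, 137 and 108 for siBAP18, so the groups did not overlap. Its level in siBAP18 was 16.0% of that in siCtrl, a log2 fold change of -2.65 (SE 0.112, adjusted p = 5.22e-16, edgeR quasi-likelihood test with Benjamini-Hochberg adjustment over 20776 genes). Library totals ran from 42094524 to 56548620 counts. Epithelial markers were high in every library, with EPCAM, KRT8, KRT18, KRT19 and CDH1 summing to between 3830 and 4060 RPKM (reads per kilobase of transcript, scaled to the library total) in siCtrl and between 2970 and 3440 in siBAP18. Of these 5 markers, 4 were lower in siBAP18, led by CDH1, the gene of E-cadherin (log2 fold change -1.32), and KRT18 was no longer called without siCtrl replicate 1 or 3 (adjusted p = 0.0708 and 0.0753, edgeR). Markers of cells that a pure line should lack were low, with 3 endothelial genes summing to at most 0.158 RPKM and 4 fibroblast genes to at most 1.37 RPKM in any library. The macrophage-associated lysosomal gene CD68, the only leukocyte marker analysed here, lay between 28.7 and 31.1 RPKM in siCtrl and between 54.2 and 69.7 RPKM in siBAP18. The part of these marker differences in the results below was not tested. In bulk RNA, fewer cells of a type and less RNA per cell cannot be told apart.

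Of the 7 genes, 4 were lower and 2 were higher in siBAP18 than in siCtrl at an adjusted p under 0.05, and HYAL2 was not called. VCAN fell furthest, to 30.1% of its control level, followed by HYAL1 to 54.8%, HMMR to 64.4% and CD44 to 78.8%. HAS2 rose 2.69-fold from a very low level and HAS3 rose 1.24-fold. These counts are to be read against a transcriptome in which 25.1% of the 20776 genes tested were lower and 24.5% higher at the same threshold, 49.6% in either direction. With an absolute log2 fold change over 1 also required, VCAN among 3.74% of genes lower and HAS2 among 4.71% higher remained, 2 of 7 genes beside 8.45% of all genes in either direction. The siCtrl and siBAP18 ranges did not overlap for 6 of the 7 genes, and for 56.6% of all genes tested. Levels are given below as CPM (counts scaled to a common library size after trimmed-mean normalization), and folds as log2 fold changes from the edgeR quasi-likelihood test, siBAP18 minus siCtrl.

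**Figure D1:**
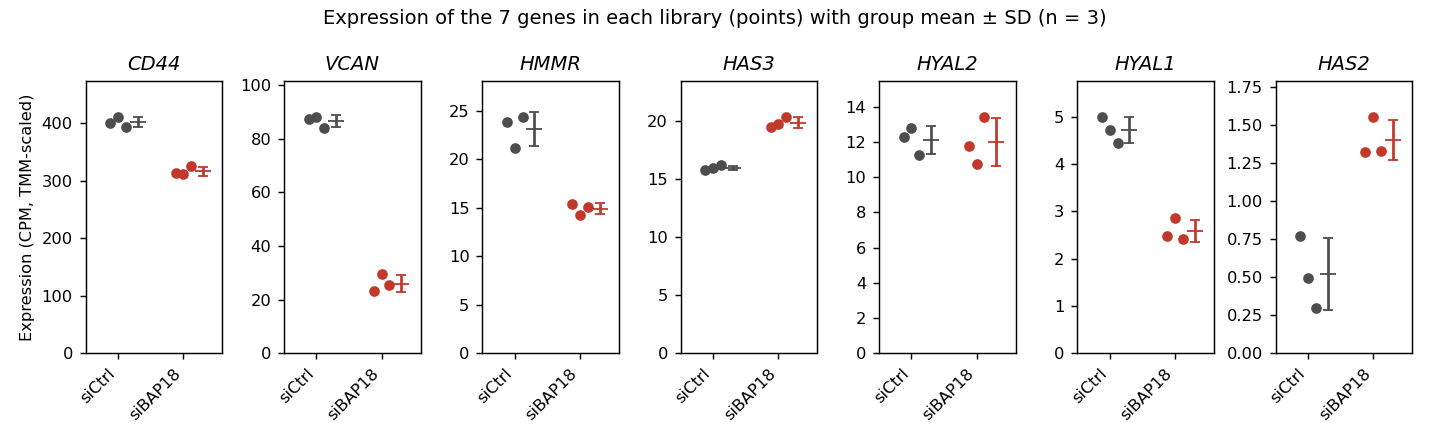
Expression of each gene in the 3 siCtrl (gray) and 3 siBAP18 (red) libraries, in CPM on an axis that starts at 0, with the group mean and SD beside the points. Every siBAP18 point lies below every siCtrl point for CD44, VCAN, HMMR and HYAL1 and above for HAS3 and HAS2, and the HYAL2 points overlap.

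CD44, the main cell surface receptor for hyaluronan, is carried on chromosome 11 (chr11:35138870-35232402 in the table's exon positions, plus strand, hg38). Its level was 401, 412 and 394 CPM in siCtrl and 314, 311 and 326 CPM in siBAP18. The highest siBAP18 library lay well below the lowest siCtrl library, and the libraries within a group stood close together. The group means were 402 ± 8.92 and 317 ± 7.76 CPM (SD, n = 3), a log2 fold change of -0.34 (SE 0.0653, adjusted p = 8.7e-05, edgeR). CD44 thus carried a small difference measured with high precision, from 13202 to 21342 reads in a library. The counts pool all splice forms, so standard and variant CD44 were not separated.

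HMMR, the spindle-associated hyaluronan binder, lies on chromosome 5 (chr5:163460203-163491945, plus strand). It stood at 23.8, 21.2 and 24.4 CPM in siCtrl and at 15.4, 14.2 and 15.1 CPM in siBAP18. The groups were separated by a gap wider than the spread inside either of them. The means were 23.1 ± 1.73 and 14.9 ± 0.600 CPM (SD, n = 3), with a log2 fold change of -0.63 (SE 0.0804, adjusted p = 3.02e-07, edgeR).

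VCAN encodes versican, a large chondroitin sulfate proteoglycan that binds hyaluronan through its amino-terminal domain and swells the matrix around cells. The gene lies on chromosome 5 as well (chr5:83471465-83582303, plus strand). Its level was 87.2, 88.2 and 83.9 CPM in siCtrl and 23.2, 29.4 and 25.5 CPM in siBAP18. The siCtrl libraries were nearly level, and the siBAP18 libraries lay far below them with somewhat more spread for their size. The means were 86.4 ± 2.29 and 26.0 ± 3.13 CPM (SD, n = 3). The log2 fold change was -1.73 (SE 0.0788, 95% interval -1.89 to -1.57, adjusted p = 2.29e-15, edgeR), the furthest from 0 of the 7 genes.

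HAS2 and HAS3 are synthases that differ in where they are used and in the length of polymer they make. HAS3 (chr16:69105564-69118719, plus strand) stood at 15.8, 15.9 and 16.2 CPM in siCtrl and at 19.4, 19.7 and 20.4 CPM in siBAP18. The libraries were tight in both groups and the groups did not overlap, so that a small rise was resolved. Its log2 fold change was 0.31 (SE 0.0762, adjusted p = 0.00124, edgeR), from 16.0 ± 0.192 to 19.9 ± 0.477 CPM (SD, n = 3).

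HAS2, on the minus strand of chromosome 8 (chr8:121612116-121641390), was close to the lower limit of what these libraries measured. Only 41, 23 and 14 reads were counted for it in siCtrl, and 72, 91 and 54 in siBAP18. In scaled values these were 0.771, 0.494 and 0.300 CPM in siCtrl and 1.32, 1.56 and 1.33 CPM in siBAP18. The siCtrl libraries differed among themselves by more than the siBAP18 libraries did, yet the highest of them stayed below the lowest siBAP18 library. The log2 fold change was 1.41 with a wide interval of 0.84 to 1.98 (SE 0.278, adjusted p = 1.38e-04, edgeR), and it ranged from 1.14 to 1.82 as each library was left out. Most low counts in the table were even, as when both mates of a read pair are counted, and with all counts divided by 2 the value was 1.42 (adjusted p = 7.25e-05, edgeR). HAS1, the remaining synthase, was lower still, with 6, 16 and 7 reads in siCtrl and 14, 14 and 22 in siBAP18, and was not called. Its siCtrl counts alone would not have passed the filter on low counts, so no p is given.

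HYAL1 and HYAL2 encode hyaluronidases of somatic tissues and lie side by side on the minus strand of chromosome 3, with HYAL3 next to them. HYAL1 (chr3:50299889-50312381) stood at 5.00, 4.71 and 4.45 CPM in siCtrl and at 2.48, 2.86 and 2.42 CPM in siBAP18. All siBAP18 libraries lay below all siCtrl libraries. The means were 4.72 ± 0.276 and 2.59 ± 0.239 CPM (SD, n = 3), a log2 fold change of -0.86 (SE 0.136, adjusted p = 8.31e-06, edgeR). HYAL2 (chr3:50317790-50322906) stood at 12.3, 12.8 and 11.2 CPM in siCtrl and at 11.8, 10.8 and 13.4 CPM in siBAP18. Here the groups overlapped, and the lowest and the highest of the 6 libraries were both siBAP18. Its log2 fold change was -0.02 (SE 0.0945, adjusted p = 0.888, edgeR), with a 95% interval of -0.21 to 0.18, so a change as large as that of HYAL1 lay outside the interval. HYAL3, whose enzyme activity is uncertain, gave a log2 fold change of -0.30 that missed the threshold (adjusted p = 0.0768, edgeR). The groups did not overlap for HYAL3, at 4.83, 5.10 and 5.09 CPM in siCtrl and 4.54, 3.12 and 4.61 CPM in siBAP18.

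**Figure D2:**
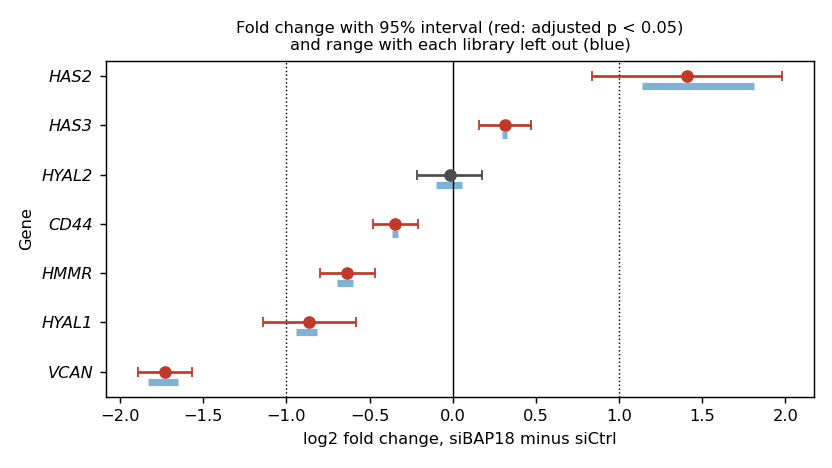
The log2 fold change of each gene (siBAP18 minus siCtrl) with its 95% interval, red where the adjusted p was under 0.05, and in blue the range of the same value as each of the 6 libraries was left out. Dotted lines mark log2 fold changes of -1 and 1, VCAN at -1.73 and HAS2 at 1.41 lie beyond them, and only the HYAL2 interval crosses 0.

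Levels of different genes were compared per length, in RPKM. The length is that listed for each gene and not that of the transcripts expressed, so the order depends on it. In siCtrl, CD44 was highest with a mean of 39.9 RPKM, followed by HMMR at 5.86, VCAN at 5.82, HAS3 at 3.01, HYAL2 at 2.66, HYAL1 at 1.50 and HAS2 at 0.124 RPKM. The ranges of HMMR and VCAN overlapped over the 3 siCtrl libraries, and those of the other neighbors in this order did not. In siBAP18, the order was CD44 at 31.5, HMMR at 3.79, HAS3 at 3.76, HYAL2 at 2.64, VCAN at 1.76, HYAL1 at 0.828 and HAS2 at 0.336 RPKM, with only HMMR and HAS3 overlapping. VCAN therefore went from a level shared with HMMR to below both HAS3 and HYAL2, while CD44 stayed highest and HAS2 lowest.

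**Figure D3:**
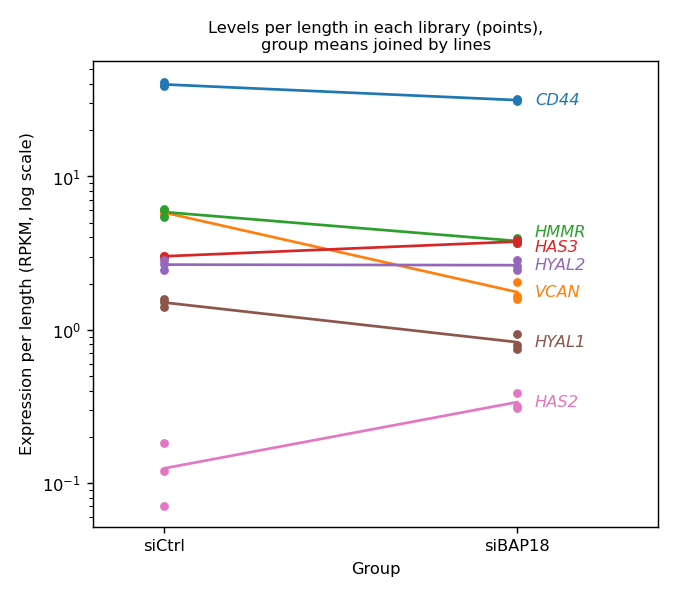
Level per length (RPKM, log scale) of the 7 genes in each library of both groups, with lines joining the group means. The VCAN line falls from 5.82 to 1.76 RPKM and crosses those of HAS3 and HYAL2, whereas CD44 stays above and HAS2 below all others.

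Ratios inside a library do not depend on how libraries are scaled, and 4 of them were formed on log2 RPKM. The VCAN to CD44 ratio was -2.76, -2.78 and -2.79 in siCtrl and -4.32, -3.97 and -4.24 in siBAP18, so versican fell relative to the receptor by 1.40 on the log2 scale. The HMMR to CD44 ratio was -2.72, -2.93 and -2.66 in siCtrl and -3.00, -3.10 and -3.08 in siBAP18, a smaller difference of -0.29. The HYAL1 to HYAL2 ratio was -0.76, -0.91 and -0.80 in siCtrl and -1.71, -1.38 and -1.94 in siBAP18, a difference of -0.85. The HAS2 to HAS3 ratio was -4.02, -4.67 and -5.42 in siCtrl and -3.54, -3.33 and -3.60 in siBAP18, a difference of 1.22 with a wide spread in siCtrl. None of the 4 pairs of groups overlapped. Each gave p = 0.1 in the exact two-sided permutation test over the 6 libraries, adjusted p = 0.1 over the 4 ratios, and 3 libraries against 3 cannot give less.

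Summed per length, the 3 synthases rose from 3.23 ± 0.0789 RPKM in siCtrl to 4.25 ± 0.106 RPKM in siBAP18 (SD, n = 3). HAS3 made up nearly all of this sum, 93.4% ± 2.05 in siCtrl and 88.5% ± 1.11 in siBAP18. The HAS2 share was 3.85% ± 1.75 and 7.91% ± 0.834, and its libraries did not overlap between the groups. The 3 hyaluronidases of the chromosome 3 cluster went the other way, from 6.62 ± 0.276 to 5.47 ± 0.434 RPKM. Within that sum, HYAL1 took 22.7% ± 1.06 in siCtrl and 15.3% ± 3.22 in siBAP18, while HYAL2 took 40.1% ± 1.35 and 48.2% ± 1.82. These are shares of transcript level and not of enzyme, polymer or activity, none of which was measured.

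Enzymes that supply hyaluronan synthesis with UDP-sugars were followed as a group, together with HAS1. Of 12 such genes tested, 7 were lower and 1 was higher at an adjusted p under 0.05 (25.1% and 24.5% of all genes), with a median log2 fold change of -0.34 beside 0.001 over all genes tested. GNPNAT1, which acetylates glucosamine phosphate, gave a log2 fold change of -0.91 (adjusted p = 3.22e-10, edgeR). UGDH, which oxidizes UDP-glucose to UDP-glucuronate, went from 209 to 135 CPM, a log2 fold change of -0.63 (adjusted p = 3.23e-08, edgeR), and UGP2, which makes UDP-glucose, gave -0.55 (adjusted p = 1.03e-06, edgeR). HK1, a hexokinase that also feeds glycolysis, gave -0.54. NAGK, which salvages N-acetylglucosamine and was named after its value was seen, was the higher gene at 0.39. UAP1, also among the 7, was no longer called without siCtrl replicate 1 or siBAP18 replicate 1 (adjusted p = 0.0771 and 0.0699, edgeR).

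Of 6 genes of hyaluronan breakdown outside HYAL1 and HYAL2 that were tested, 2 were lower and 2 higher. Among all genes tested, 25.1% were lower and 24.5% higher. The lower genes were CEMIP, which encodes a hyaluronan-binding protein needed for depolymerization at the cell surface, with a log2 fold change of -0.68 (adjusted p = 3.29e-08, edgeR), and TMEM2, a membrane hyaluronidase now called CEMIP2, with -0.63 (adjusted p = 2.86e-07, edgeR). HEXA, which encodes a lysosomal enzyme subunit that acts on gangliosides as well, was higher at 0.25 (adjusted p = 0.00321, edgeR). The count of higher genes was 1 without siCtrl replicate 2, siCtrl replicate 3 or siBAP18 replicate 1. HYAL4 and SPAM1 had at most 4 reads in any library and were not tested.

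Among the other hyaluronan receptors, 5 were tested and only HABP4 was called, beside 49.6% of all genes tested in either direction. HABP4 stood at 22.0 CPM in siCtrl and 91.2 CPM in siBAP18 (log2 fold change 2.05, SE 0.0701, adjusted p = 6.05e-18, edgeR). HABP4 binds hyaluronan in vitro but is an intracellular, RNA-binding protein. The surface receptors STAB2, LAYN, TLR4 and the integrin ITGA4 were each under 1 CPM on average and not called, and STAB1 and TLR2 had at most 6 reads in a library.

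Of 8 other hyaluronan-binding matrix genes tested, 3 were lower and 2 higher (25.1% and 24.5% of all genes), with a median of -0.32. The lower genes were ITIH5 at -0.72 and AMBP at -0.34, which belong to the inter-alpha-inhibitor proteins that stabilize hyaluronan matrices, and HABP2, a plasma-type protease, at -0.48. AMBP was not called without siCtrl replicate 1 or 3 or without siBAP18 replicate 1 or 2 (adjusted p from 0.0592 to 0.112, edgeR). BCAN, which encodes brevican, a relative of versican otherwise typical of brain, was higher at 16.1 against 9.08 CPM (log2 fold change 0.83, adjusted p = 7.48e-08, edgeR). PTX3, a pentraxin that cross-links hyaluronan matrices, had 6, 2 and 2 reads in siCtrl and 60, 52 and 34 in siBAP18. It passed the filter on low counts only through siBAP18, so neither a fold nor a p is given, and the count of higher genes was 1 in place of 2 when at least 10 counts in every library were required.

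The genes grouped around CD44, its cytoplasmic linkers, splicing regulators, sheddases and ligands, numbered 21, and all were tested. Of these, 10 were lower and 4 higher (25.1% and 24.5% of all genes), with a median of -0.24. ADAM10, which sheds the CD44 ectodomain, was lower at -0.82 (adjusted p = 4.14e-10, edgeR), and so was SPP1, the gene of the CD44 ligand osteopontin, at -0.66 (adjusted p = 3.94e-09, edgeR). RDX, which encodes the linker radixin, gave -0.64, whereas its relative EZR, at 1879 and 2054 CPM, was not called (adjusted p = 0.131, edgeR). NF2, which encodes merlin, a counterpart of these linkers, was higher at 58.3 against 34.6 CPM (log2 fold change 0.75, adjusted p = 2.47e-09, edgeR). The linker MSN (-0.24) was not called without siBAP18 replicate 1 (adjusted p = 0.053), the splicing regulator ESRP1 (-0.47) not without siCtrl replicate 1 (adjusted p = 0.0569), and the protease gene MMP7 (0.19) not in 5 of 6 such fits (adjusted p from 0.0785 to 0.202, edgeR).

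**Figure D4:**
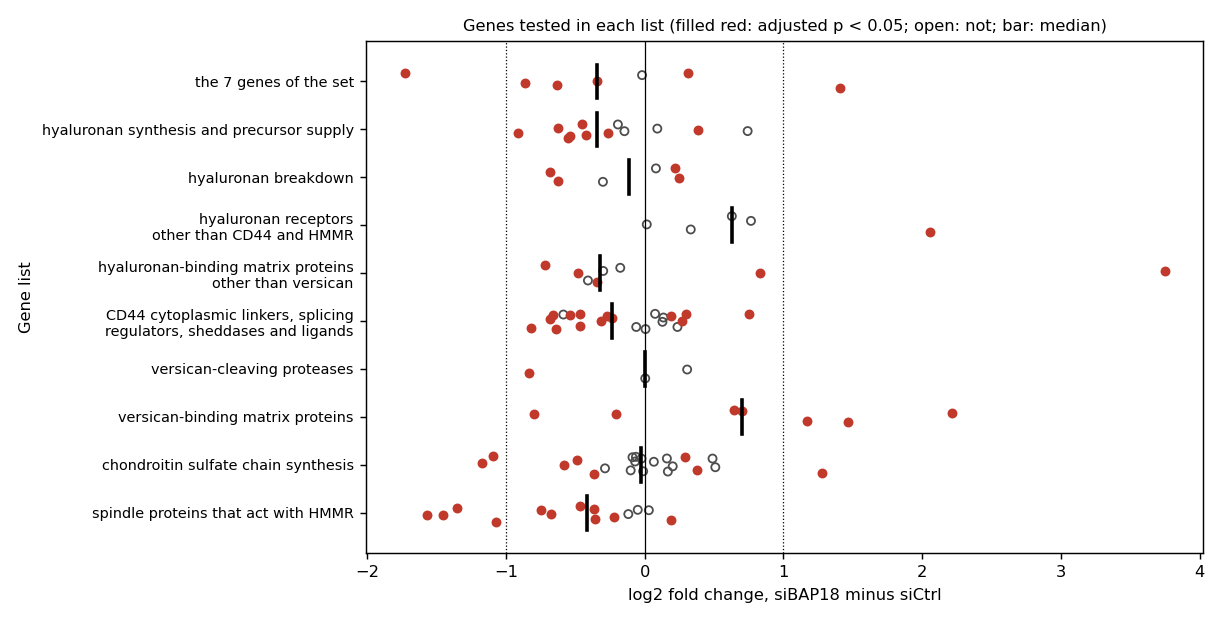
The log2 fold change (siBAP18 minus siCtrl) of every tested gene of the set and of 9 lists grouped by role, filled red where the adjusted p was under 0.05, with a bar at each median. The synthesis and spindle lists have medians of -0.34 and -0.42, and the versican-binding list has its median at 0.70. The spindle list includes HMMR-AS1, an antisense RNA gene that overlaps HMMR. The filled points of PTX3 and FBLN2 are of genes that passed the filter on low counts only through siBAP18.

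Around versican, proteins that bind it and enzymes that build or cleave it were counted. Of 7 versican-binding matrix genes tested, 2 were lower and 5 higher, with a median of 0.70, while VCAN itself fell. The shares over all genes tested were 25.1% lower and 24.5% higher. FBN2 and TNC, which encode fibrillin-2 and tenascin-C, went from 36.6 to 82.2 CPM and from 4.00 to 11.1 CPM, with log2 fold changes of 1.17 (adjusted p = 1.04e-12, edgeR) and 1.47 (adjusted p = 6.82e-11, edgeR). TGFBI gave 0.70 and FBN1, the fibrillin-1 gene, gave 0.64, and FBLN2, the fibulin-2 gene, had 4, 0 and 6 reads in siCtrl and 20, 18 and 12 in siBAP18. FBLN2 passed the filter only through siBAP18 and is given without a p, and 4 genes in place of 5 were higher when at least 10 counts in every library were required or counts were divided by 2. FN1, the fibronectin gene, was abundant and fell from 1068 to 614 CPM (log2 fold change -0.80, adjusted p = 5.02e-10, edgeR). FBLN1 (-0.21) was the other lower gene, and with 1 library left out it was called only without siBAP18 replicate 3, with adjusted p from 0.055 to 0.16 without each of the other 5 (edgeR). Among 3 versican-cleaving proteases tested, ADAMTS9 was lower at -0.84 (adjusted p = 3.59e-06, edgeR), and ADAMTS1 and ADAMTS15 were not called.

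Versican carries chondroitin sulfate, and of 21 genes for building these chains that were tested, 5 were lower and 3 higher, with a median of -0.02, near or below the 25.1% lower and 24.5% higher among all genes tested. The lower genes included 2 enzymes that build the linker to the core protein, XYLT1 at -1.09 (adjusted p = 7.06e-04, edgeR) and B3GAT3 at -1.18 (adjusted p = 2.61e-09, edgeR), and the linker kinase FAM20B at -0.58. The other xylosyltransferase, XYLT2, was at 58.7 and 66.0 CPM and was not called (adjusted p = 0.056, edgeR), against 1.61 and 0.768 CPM for XYLT1. The sulfotransferase genes CHST14 and CHST3 were higher at 1.28 (adjusted p = 5.89e-10, edgeR) and 0.38. With the replicate number as a block, 5 genes of this list were higher in place of 3.

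HMMR acts at the spindle with TPX2, AURKA and other proteins. The 14 genes counted were those of such proteins and HMMR-AS1, an antisense RNA gene that shares exon bases with HMMR. Of these 14, 10 were lower, HMMR-AS1 (-0.75) among them, and 1 was higher. The median, HMMR-AS1 included, was -0.42, and 4 genes were lower by more than 1 on the log2 scale. Among all genes tested, 25.1% were lower, 24.5% higher and 3.74% lower by more than 1. KIF11, the mitotic kinesin that pushes spindle poles apart, went from 43.8 to 15.9 CPM (log2 fold change -1.46, adjusted p = 1.75e-14, edgeR), and KIF15 gave -1.36. BRCA1 and its partner BARD1, which with HMMR regulate centrosomes but are also DNA repair proteins, gave -1.57 (adjusted p = 2.44e-13, edgeR) and -1.07. CKAP5, a microtubule polymerase, gave -0.47. NUMA1, PLK1 and TACC3 were not called, at 0.03, -0.05 and -0.12. DYNLL1, a dynein light chain and the higher gene at 0.19, was called with all libraries and without siBAP18 replicate 2, but not without any of the other 5 (adjusted p from 0.0579 to 0.256, edgeR), and TUBG1 (-0.22) was not called without siCtrl replicate 1 or siBAP18 replicate 1 (adjusted p = 0.06 and 0.0551, edgeR). Over all lists together, 40 of 97 genes tested were lower and 19 higher, with a median of -0.12. Of the 20776 genes, 25.1% were lower and 24.5% higher. The 40 include HMMR-AS1, and the 19 include PTX3 and FBLN2, which passed the filter on low counts only through siBAP18. HAS1, whose siCtrl counts alone would not have passed, is among the 97.

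Several of the 7 genes share exon bases with a gene on the other strand. The libraries are labelled strand-specific, but whether counting used the strand is not given in the sources used here, so reads of such pairs could not be told apart with certainty. VCAN and VCAN-AS1 share 453 bases, 3.05% of the VCAN exons, and VCAN-AS1 gave 43, 50 and 44 reads in siCtrl and 18, 16 and 25 in siBAP18 (log2 fold change -1.25, adjusted p = 0.00236, edgeR). HMMR and HMMR-AS1 share 113 bases, and HMMR-AS1 went from 314, 270 and 305 reads to 194, 205 and 155 (log2 fold change -0.75, adjusted p = 1.09e-05, edgeR). These antisense genes lay on the same side of 0 as their partners.

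The antisense gene RP1-68D18.4, at the position of CD44-AS1 in GENCODE 29, shares 84 bases with CD44 and gave a log2 fold change of -0.31 (adjusted p = 8e-04, edgeR), from 1768, 1589 and 1459 reads to 1439, 1492 and 1119. HAS2-AS1 had at most 17 reads in a library and was not tested. HAS3 shares 365 bases with CHTF8, a replication clamp loader subunit gene on the opposite strand, which was not called (0.11, adjusted p = 0.234, edgeR). HYAL2 shares 509 bases, 11.2% of its exons, with TUSC2 on the same strand, where strand cannot separate them, and TUSC2 was slightly higher (0.21, adjusted p = 0.0413, edgeR). NAT6, now called NAA80, an actin acetyltransferase gene of the same cluster, gave -0.71 (adjusted p = 0.00101, edgeR).

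Genes with the most similar profiles over the 6 libraries were sought among 14222 genes, by the distance between centered log2 CPM values. For CD44 these were GGCX, ANKRD39 and LRP5, at distances of 0.0278 to 0.0413. For VCAN they were NPY4R, GINS1 and GATM, at 0.155 to 0.175, and for HMMR they were CPT2, PRDX1 and HILPDA, at 0.0878 to 0.0941. The log2 fold changes of these neighbors were -0.34 to -0.35 for CD44, -1.70 to -1.84 for VCAN and -0.67 to -0.69 for HMMR. Such similar folds follow from the choice of neighbors, since the distance includes the difference between the groups.

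An siRNA can also act on transcripts whose 3′ UTR holds the complement of its guide bases 2 to 8, and the words opposite those bases were sought in the longest 3′ UTR of each gene (GENCODE 29). The sites found in the 7 genes are shown because VCAN, HYAL1 and HAS3 were called, with the word in capitals, at chr3:50300177-50300205 (minus strand) in HYAL1, chr16:69117627-69117655 (plus strand) in HAS3 and chr5:83581185-83581213 (plus strand) in VCAN.
HYAL1 site, siBAP18#1: tgaactgcagcAATCACAaaggctgacat
HAS3 site, siBAP18#2: ttgtcaaaataAAGATTCtcacatatgcc
VCAN site, siBAP18#3: gctaataattaACTCAACcaggtctactt

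The word AATCACA was present in 13.1% of the 18788 genes with a 3′ UTR, AAGATTC in 10.3% and ACTCAAC in 6.6%, and each was found in 1 of the 7 genes. The word of the control siRNA, TGTCACG, was present in 2.73% of genes and in none of the 7. CD44, HMMR, HAS2 and HYAL2 held none of these words in that window. HAS3, which holds the word of siBAP18#2, was higher in siBAP18. The part of such sites in the values of HYAL1, HAS3 and VCAN was not tested, and which siRNA was used is not given.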

How the data were processed

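The deposited table holds raw counts per gene made by the authors (hg38 and GRCm38 are listed in the submitters' processing notes, and the exon positions are human), and a companion table holds the deposited RPKM values, which equal the counts divided by listed gene length in kilobases and by the library total. Aligner, counter and use of strand are not given in the sources used here. Of counts from 1 to 20, 75.9% were even, as when both mates of a pair are counted, in which case fragments are fewer than counts. Counts were tested with edgeR 4.0.16 in R 4.3.3 (default filter on low counts, TMM scaling, robust quasi-likelihood test, no covariate, Benjamini-Hochberg over 20776 genes), called at an adjusted p under 0.05. The code was tested on simulated data. The ratios used an exact permutation test. P-values measure the spread between the 3 libraries of a group, which the labels call biological replicates. No 2 libraries of a group were copies of each other.

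The 7 genes, the lists and the tests were chosen with earlier results of these data known. Named in the text are the 7 genes, C17orf49, genes that overlap or adjoin them, the 3 nearest profiles to CD44, VCAN and HMMR (average log2 CPM not under 1) and from each list up to 4 called genes with the smallest adjusted p plus any called gene beyond an absolute log2 fold change of 1. Other list genes were named after their values were seen, and 1 gene that the rule names is not reported here. Table symbols older than current ones are given as listed. PTPRC, CD3E, DCN, LYVE1, HAPLN1 and ADAMTS20 were not analysed here. Alternatives were other scalings, filters and tests (DESeq2 1.42.0, edgeR likelihood ratio, limma 3.58.1 on log2 of RPKM with a pseudocount of 1 or 0.1 and with or without a filter of mean RPKM of at least 0.5), the replicate number as a block, each library left out and, chosen after seeing the data, counts divided by 2. Promoters came from RefSeq (GRCh38.p14), where 6 of the 7 genes were searched, and 3′ UTRs from GENCODE 29.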

Additional observations from a re-analysis of the deposited data

How the results depend on the processing

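CD44, VCAN, HMMR, HAS3, HYAL1 (18 alternatives each) and HAS2 (16, as it did not pass the filter on RPKM) kept their direction and an adjusted p under 0.05 in every alternative run, including the counts divided by 2. With each library left out in turn, the log2 fold change ranged from -0.363 to -0.331 for CD44, -1.831 to -1.653 for VCAN, -0.698 to -0.598 for HMMR, -0.945 to -0.819 for HYAL1, 0.298 to 0.329 for HAS3 and 1.137 to 1.815 for HAS2. With limma on log2(RPKM + 1) without a filter, HAS2 gave 0.25, since a pseudocount far above its level shrinks a fold. HYAL2 was called in none of its 18 alternatives (adjusted p from 0.355 to 0.974), and its value changed sign without siCtrl replicate 2 (0.02) and without siBAP18 replicate 2 (0.054), with a range of -0.102 to 0.054. Genes lower beyond a log2 fold change of -1 numbered 777, against 133 with limma on log2(RPKM + 1), filtered or not, and 434 with log2(RPKM + 0.1). Genes higher beyond 1 numbered 978, against 605 with at least 10 counts in every library, 215 with limma on log2(RPKM + 1), 212 without its filter and 475 with log2(RPKM + 0.1). Of 324 counts of called genes in single lists under the alternatives, 296 stayed within 1.5 times the count reported and 28 did not. Other scalings moved the median log2 fold change of all genes by at most 0.0105. Deviations of same-numbered libraries correlated at 0.0722, 0.222 and 0.105 over 14222 genes, so the numbers were not taken as pairs, although every library correlated best with its own number. With the replicate block, no call of the 7 genes changed, and CD44, VCAN and HAS2 gave log2 fold changes of -0.345, -1.738 and 1.438.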
